A study of Arabidopsis thaliana with 4 samples.

Results

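The expansin superfamily of Arabidopsis thaliana comprises 36 loci: 26 alpha-expansin genes (EXPA1 to EXPA26), 6 beta-expansin genes (EXPB1 to EXPB6), 3 expansin-like A genes (EXLA1 to EXLA3) and 1 expansin-like B gene (EXLB1). The members were taken by locus identifier, and all 36 were present among the 33602 loci counted in each library. RNA was sequenced from root tips of seedlings in the Col-0 background, 4 days after germination on agar medium with sucrose. The 4 groups were Col-0 plants and med16-2 mutants, each grown with 1 mM phosphate (high phosphate, +Pi) or 5 µM phosphate (low phosphate, -Pi). The mutant is a single line, named for MED16, a subunit of the Mediator complex that links transcription factors to RNA polymerase II. Each group is 1 library, so the groups have no replicates, and how many seedlings made up a library is not given in the sources used here. Wherever 4 values of a gene follow each other, they stand for Col-0 +Pi, Col-0 -Pi, med16-2 +Pi and med16-2 -Pi in that order.

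Expansins are small secreted wall proteins that let cellulose microfibrils and the polysaccharides between them slip past each other, without cutting them, when the wall becomes acidic. Alpha-expansins are the classical agents of this acid growth, beta-expansins are best known from grass pollen and grass walls, and expansin-like proteins share the domain structure but are not known to loosen walls. In roots, alpha-expansin genes are known from cell elongation, from root hair outgrowth, in which EXPA7 and EXPA18 act, and from lateral root emergence, in which EXPA14 and EXPA17 act. Low phosphate is known to shorten the primary root and to alter root hairs and lateral roots.

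Gene counts per library totalled 10079345, 15696333, 14266585 and 12302510. MED16 (AT4G04920), for which the mutant is named, had 420, 747, 56 and 48 counts, lower in the mutant libraries. The low phosphate library of med16-2 stood apart in that 36.6% of its listed reads aligned to several places, against 6.65% to 9.27% in the other 3. Of 7 root tip markers, among them PLT1, SCR and SHR, all had counts in every library, and their summed level ranged from 148.8 to 172.7 CPM (counts relative to a library size scaled by the trimmed mean of M values). Among them WOX5, a gene of the quiescent center, had 5, 56, 5 and 7 counts, high in Col-0 -Pi alone. Of 6 green tissue markers, the summed level was 165, 139, 7.78 and 15.3 CPM, with LHCB2.1 at 0 counts in med16-2 -Pi and RBCS1A at 0 in med16-2 +Pi. Low phosphate was compared with high phosphate within each genotype, and med16-2 with Col-0 at each phosphate level. A gene is called higher or lower where the ratio was at least 2-fold and its exact 95% interval, which covers counting error only, excluded equality. This size rule was applied to 18692 loci, those whose level averaged 1 CPM or more over the 4 libraries. Of the 36 members, 22 passed this filter.

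The levels of the 22 measured members spanned a wide range. Per kilobase of exon, EXPA9 (AT5G02260) was the most abundant member, at 187.8, 173.4, 199.7 and 183.7 CPM per kilobase. Its mean placed it at rank 544 of 32835 loci with an annotated length. The root hair genes EXPA7 (AT1G12560) and EXPA18 (AT1G62980) followed, with means of 100.5 and 85.7 CPM per kilobase. EXPA14 and EXLA1 came next at means of 56.3 and 53.1, and then EXPA15, EXPA11 and EXPB1 at 40.9, 36.9 and 35.3. The ranges over libraries of EXPA7 and EXPA18, from 77.8 to 132 and from 58.7 to 121, overlapped, as did those of EXPA14 and EXLA1, whereas the lowest library of EXPA9 lay above the highest of EXPA7. The lowest measured member was EXPA10, a gene known from growing leaves and pedicels, with a mean of 2.00 CPM per kilobase.

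**Figure D1:**
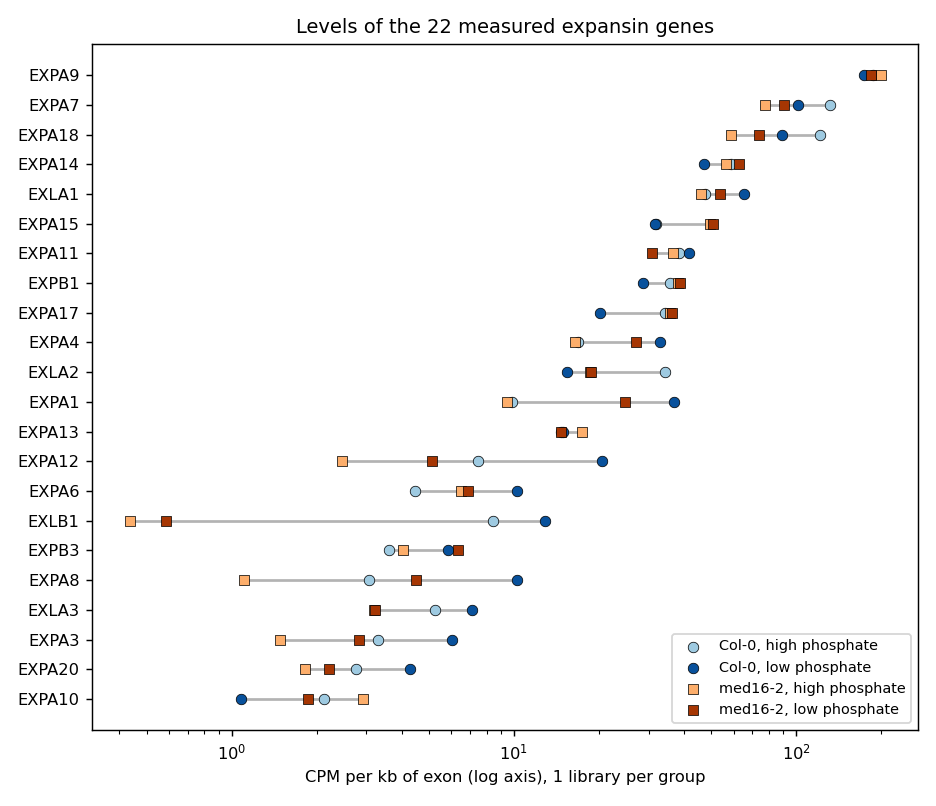
Level of each of the 22 measured expansin genes in CPM per kilobase of exon on a log axis, with 1 point per library and a grey line from the lowest to the highest library. EXPA9 is highest at 173 to 200 in all 4 libraries, EXLB1 separates the 2 genotypes, and EXPA1 separates the 2 phosphate levels.

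The other 14 members stayed below the filter, among them 4 of the 6 beta-expansin genes and a tandem cluster of alpha-expansin genes. Of these, 10 had no count in any library, namely EXPA2, EXPA22 to EXPA26, EXPB2, EXPB4, EXPB5 and EXPB6, where a count of 0 allows up to 0.191 to 0.298 CPM (3 counts of a library's total). EXPA2 is known from germinating seeds. The other 4, EXPA5, EXPA16, EXPA19 and EXPA21, had between 0 and 5 counts per library. EXPA19 is annotated as a transcribed pseudogene, and EXPA21 overlaps AT5G39250 on the opposite strand over 964 bases, so its few counts are uncertain in libraries without strand. The highest mean below the filter was 0.283 CPM for EXPA21 and the lowest above it was 3.14 CPM for EXPA10, so no member lay close to the limit. EXPA21 to EXPA26 lie side by side on chromosome 5, between positions 15726243 and 15740605 of the TAIR10.1 assembly. Within that cluster the coding sequences of EXPA22 and EXPA26 were 97.7% identical with an identical run of 208 bases, and those of EXPA23 and EXPA25 97.1% with a run of 219 bases. Reads from such stretches align to several places and were listed apart from gene counts, so the zeros of these 4 genes are uncertain.

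Summed over the family, expansin transcripts stood at 1052, 1032, 918 and 995 CPM. The alpha-expansins made up 884, 865, 777 and 839 CPM of this. EXPA9, EXPA7, EXPA18 and EXPA14 together held 74.1%, 62.6%, 68.0% and 65.7% of the alpha-expansin level. Their share was thus largest in Col-0 +Pi.

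**Figure D2:**
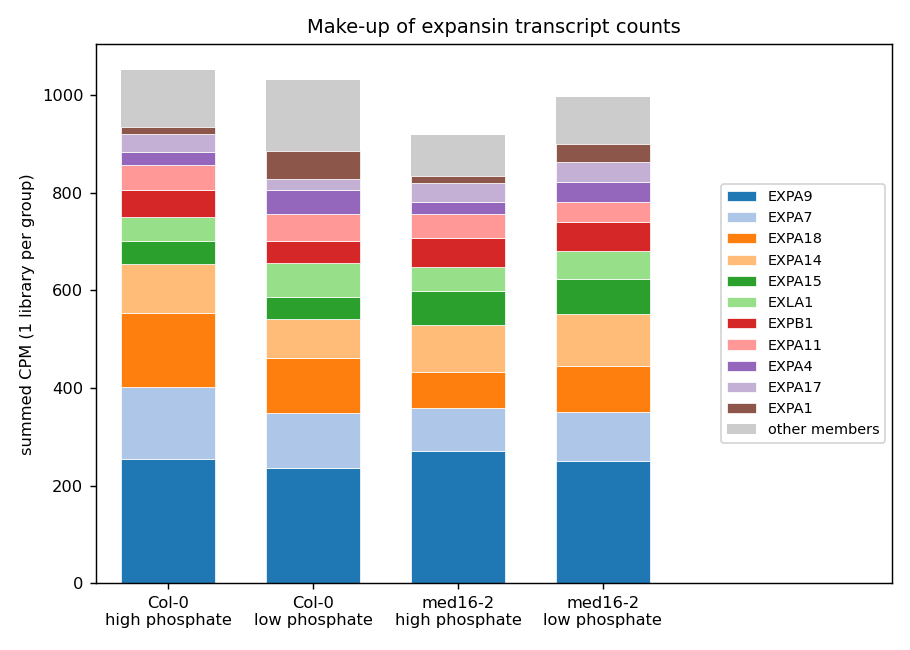
Summed CPM of the 36 expansin loci in each of the 4 libraries, stacked by member, with the 11 members of highest mean CPM shown singly. The total stays between 918 and 1052 CPM while the EXPA7 and EXPA18 segments are largest in Col-0 at high phosphate and EXPA1 and EXPA4 are larger at low phosphate.

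At low phosphate in Col-0, 4 members were higher (EXPA1, EXPA6, EXPA8 and EXPA12) and 1 was lower (EXLA2), where 3.24% and 1.49% of all tested loci were called higher and lower. In med16-2, 3 members were higher at low phosphate (EXPA1, EXPA8 and EXPA12) and 0 were lower, against backgrounds of 2.26% and 1.03%. Between genotypes at high phosphate, 5 members were lower in med16-2 (EXLB1, EXPA12, EXPA8, EXPA3 and EXPA18) and 0 were higher, against 6.34% and 0.712% of tested loci. At low phosphate, 5 were lower in med16-2 (EXLB1, EXPA12, EXPA8, EXLA3 and EXPA3) and 0 higher, against 6.14% and 1.04%. In both genotype counts EXLB1 passed the filter through its Col-0 libraries alone and so had to differ, which leaves the other 4 to be read against the background. Of the 22 measured members, 13 met the size rule in none of these 4 comparisons. Over the 22, the phosphate log2 ratio had a median of 0.27 (Col-0) and 0.19 (med16-2), and the genotype log2 ratio one of -0.06 (+Pi) and -0.27 (-Pi), beside medians over all tested loci of -0.02, -0.01, 0.02 and 0.01. Each library enters a pair of these comparisons, so they are not independent of each other.

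A fit over all 4 libraries with genotype and phosphate as additive terms (edgeR's quasi-likelihood test, Benjamini-Hochberg adjustment over 18692 loci) leaves 1 residual degree of freedom, which holds the dependence of the phosphate ratio on genotype. In this fit EXPA1, EXPA8 and EXPA4 rose at low phosphate, beside 0.781% of all loci that rose, and 0 members fell, beside 0.187%. With edgeR at an unadjusted p under 0.05, 7 members were higher and 1 was lower, beside 7.58% and 5.82% of all loci. DESeq2 called 3 members higher and 0 lower after adjustment, beside 0.952% and 0.317% of the 17967 loci it gave an adjusted p. For genotype, EXPA12, EXPA8 and EXPA3 fell in med16-2, beside 6.52% of all loci, and EXPA15 rose, beside 0.792%. DESeq2 called EXPA12 and EXPA18 lower and EXPA15 higher, beside 4.19% and 0.203%. EXLB1 was also past the threshold with both tools, but since it entered the fit through its Col-0 libraries alone, it is described below by its values with no test.

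**Figure D3:**
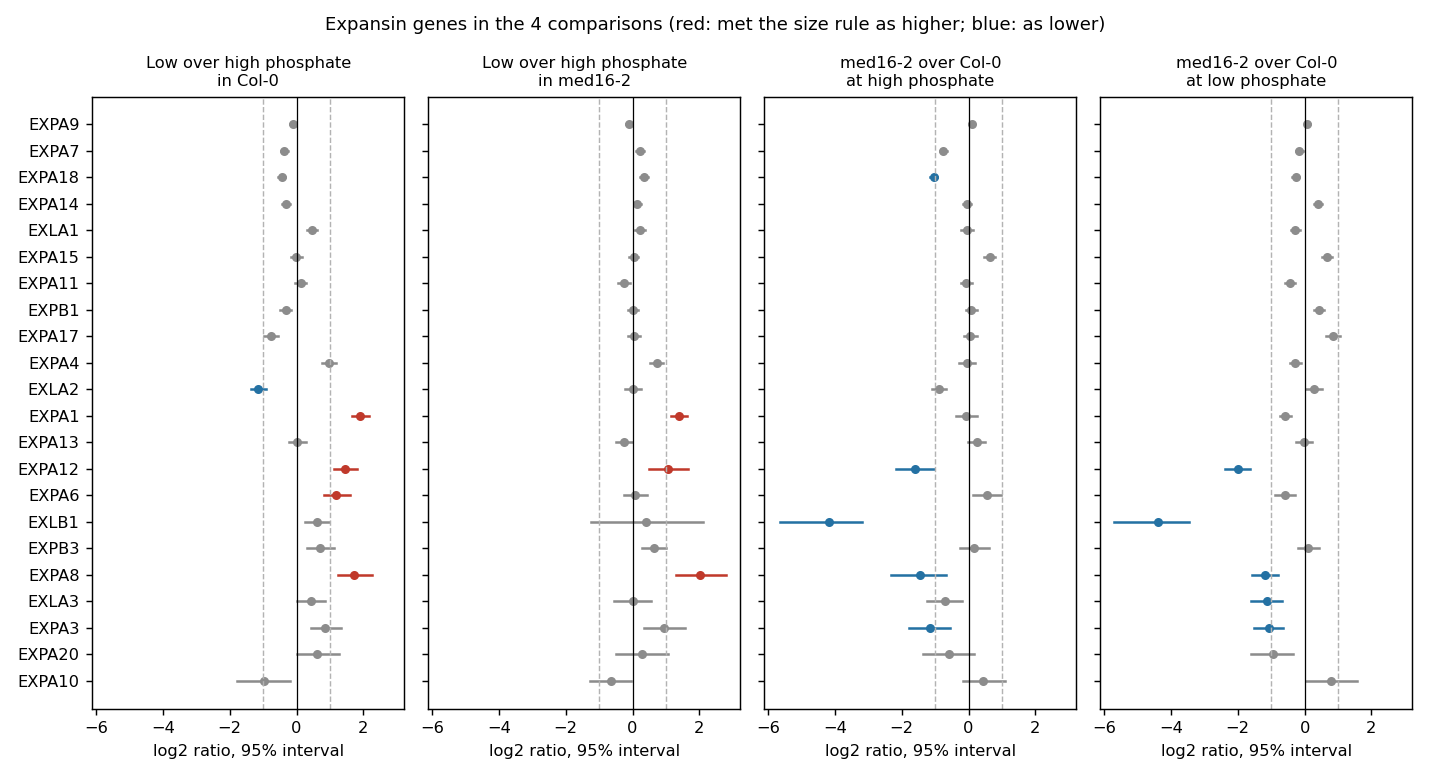
Log2 ratio with its exact 95% interval (counting error only) for the 22 measured expansin genes in the 4 comparisons, ordered as by level, with dashed lines at 2-fold. Red marks members that met the size rule as higher and blue as lower: EXPA1, EXPA8 and EXPA12 are red in both phosphate panels, and EXLB1, EXPA12, EXPA8 and EXPA3 are blue in both genotype panels.

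EXPA1 (AT1G69530), known for its action in guard cells and, downstream of cytokinin, in root cells leaving the meristem, had the largest phosphate ratio of the family in Col-0. It was at 15.2, 57.3, 14.6 and 38.4 CPM. Both low phosphate libraries were thus above both high phosphate libraries, and the genotypes started from about the same level. The ratio was 3.75-fold (3.16 to 4.50) in Col-0 and 2.63-fold (2.23 to 3.11) in med16-2. In edgeR's additive fit it rose by a log2 change of 1.65 at low phosphate, with an adjusted p of 0.0210. The log2 ratio in med16-2 minus that in Col-0 was -0.51 (-0.85 to -0.17), a difference short of 2-fold.

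EXPA8 (AT2G40610) was a low-abundance member, higher with -Pi in both genotypes and lower in the mutant at both phosphate levels. Its counts were 40, 216, 21 and 73, or 4.06, 13.5, 1.46 and 5.95 CPM. It was higher at low phosphate by 3.30-fold (2.37 to 4.79) in Col-0 and by 4.01-fold (2.48 to 6.98) in med16-2, and the difference of these log2 ratios, 0.28 (-0.56 to 1.13), was within counting error. Relative to Col-0, med16-2 was 2.75-fold lower (1.60 to 4.97) with +Pi and 2.26-fold lower (1.74 to 3.01) with -Pi. In the additive fit of edgeR the adjusted p was 0.0347 for phosphate and 0.0292 for genotype. DESeq2 gave 0.140 for the genotype term of EXPA8.

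The 250 bases before the annotated gene start of EXPA8 are shown in part because they hold the single match in the family to P1BS, the binding site of the phosphate starvation regulator PHR1. The motif was searched as GNATATNC on both strands and is in capitals below, in a stretch of TAIR10.1 at chr2:16950747-16950794 on the minus strand.
EXPA8: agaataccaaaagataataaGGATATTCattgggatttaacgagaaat
The match lies 69 to 62 bases before the start and overlaps no other motif searched. Such a match was present in 5.46% of the 27443 protein-coding promoter windows of the same length, so it is common, and 1 of the 36 members holding it is a description only. EXPA1, EXPA4 and EXPA12 had no match in this window. The other short motifs searched on both strands were the G-box CACGTG, in 1 of 36 members and 6.49% of all windows, the auxin response element TGTCTC, in 5 members and 10.9%, and the cold response element CCGAC, added after the values were seen, in 3 members and 12.0%.

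EXPA12 (AT3G15370) combined a higher level at low phosphate with a lower level in med16-2. Its counts were 85, 379, 41 and 73, or 8.63, 23.7, 2.85 and 5.95 CPM. Col-0 was above med16-2 at either phosphate level, and the mutant at low phosphate stayed below Col-0 at high phosphate. The phosphate ratio was 2.74-fold (2.17 to 3.52) in Col-0 and 2.08-fold (1.41 to 3.14) in med16-2. The mutant was 3.01-fold lower (2.06 to 4.51) with +Pi and 3.97-fold lower (3.10 to 5.20) with -Pi. In the additive fit of edgeR the genotype term fell by 1.83 on the log2 scale with an adjusted p of 0.00929, whereas the phosphate term, a log2 change of 1.30, had an adjusted p of 0.0527.

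EXPA4, EXPA3 and, in Col-0 only, EXPA6 had phosphate ratios near the limit of the size rule. EXPA4 (AT2G39700) stood at 25.3, 49.3, 24.7 and 40.7 CPM. Its ratios, 1.95-fold (1.69 to 2.26) and 1.65-fold (1.44 to 1.90), were below 2-fold with narrow intervals, and the additive fit of edgeR gave a rise with an adjusted p of 0.0430. EXPA3 (AT2G37640) had 58, 171, 38 and 62 counts. Its phosphate log2 ratios were 0.86 (0.43 to 1.32) in Col-0 and 0.93 (0.33 to 1.56) in med16-2, and med16-2 was lower by 2.22-fold (1.46 to 3.45) with +Pi and 2.11-fold (1.58 to 2.88) with -Pi. For EXPA3 the genotype term had an adjusted p of 0.0367 with edgeR and of 0.285 with DESeq2. EXPA6 (AT2G28950) was at 7.11 and 16.4 CPM in Col-0 and at 10.4 and 10.9 CPM in med16-2. The Col-0 library with -Pi was 2.29-fold higher (1.76 to 3.04), and the gene had a log2 ratio of 0.08 (-0.27 to 0.42) in med16-2. The difference of these log2 ratios was -1.12 (-1.62 to -0.61), and EXPA6 was the only measured member called lower in this difference, beside 2.16% of all tested loci.

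**Figure D4:**
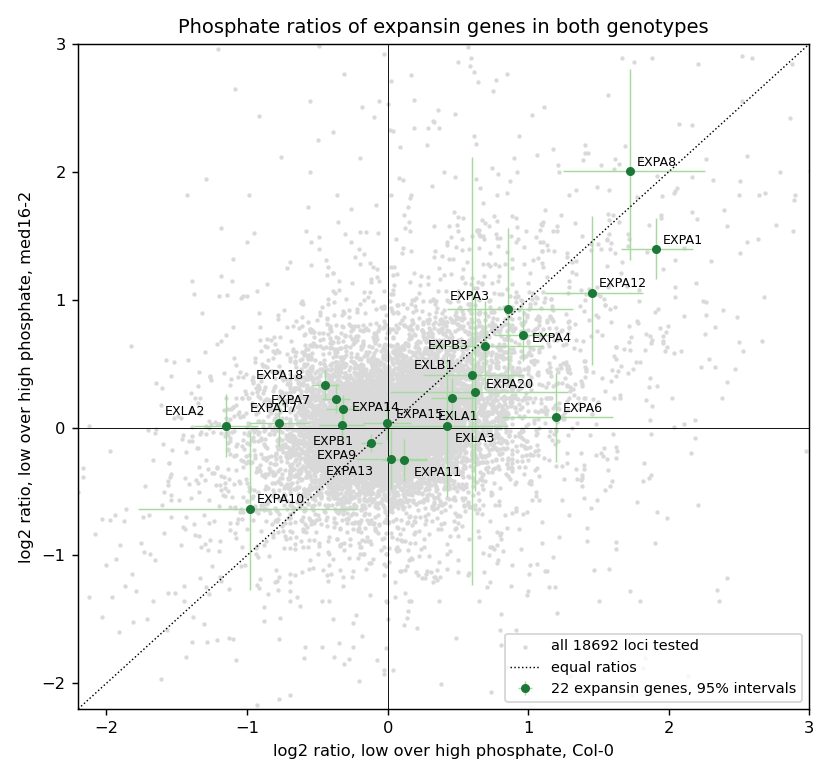
Log2 ratio of low over high phosphate in Col-0 (horizontal) and in med16-2 (vertical) for the 22 measured expansin genes with exact 95% intervals (counting error only), over all tested loci in grey, with axes limited to the range of the members. EXPA1, EXPA8 and EXPA12 lie at the upper right, and EXPA7, EXPA14 and EXPA18 are below 0 in Col-0 and above 0 in med16-2. EXPA6 and EXLA2 lie near 0 for med16-2 alone, as do others such as EXPA17, EXPB1 and EXLA3 with smaller ratios in Col-0.

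EXPA7 and EXPA18 are the root hair members of the family. Their transcription in root hair cells is known to depend on the root hair element, a promoter motif bound by the transcription factor RSL4. That element was searched on both strands in the 250 bases before each gene start. Of the 36 members EXPA7 and EXPA18 were the only 2 with a match, against 207 of 27443 promoter windows (0.754%) and 6 of the 21 genes of a root hair list. Since both genes were already known to depend on this element, their matches are a description only and no test of enrichment. The stretches below are from the plus strand of TAIR10.1, EXPA7 at chr1:4276407-4276463 and EXPA18 at chr1:23331503-23331558, with the matches in capitals.
EXPA7: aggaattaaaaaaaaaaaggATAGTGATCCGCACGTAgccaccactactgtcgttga
EXPA18: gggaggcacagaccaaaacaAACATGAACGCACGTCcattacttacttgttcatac
The match starts 78 bases before the start of EXPA7 and 40 bases before that of EXPA18, and neither overlaps another motif searched. The coding sequences of these genes were 71.6% identical with a longest identical run of 21 bases. Opposite-strand genes overlap EXPA7 (AT1G12570) by 23 bases and EXPA18 (AT1G62978, which also covers part of the stretch shown) by 46 bases, and they had at most 1 count in any library.

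Both root hair members were highest in Col-0 at high phosphate and lowest in med16-2 at high phosphate. EXPA7 was at 147, 114, 86.9 and 101.5 CPM. EXPA18 was at 151.6, 111, 73.4 and 92.6 CPM. At low phosphate the log2 ratio was negative in Col-0 and positive in med16-2 for each gene. For EXPA7 it was -0.37 (-0.47 to -0.27) in Col-0 and 0.22 (0.11 to 0.34) in med16-2, a difference of 0.59 (0.44 to 0.74). For EXPA18 it was -0.45 (-0.55 to -0.35) and 0.34 (0.21 to 0.46), a difference of 0.78 (0.63 to 0.94). No phosphate ratio of either gene reached 2-fold.

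Between genotypes at high phosphate, EXPA18 was 2.06-fold lower (1.91 to 2.24) in med16-2 and EXPA7 had a log2 ratio of -0.76 (-0.87 to -0.65). EXPA18 was at the limit of the rule, since its log2 ratio was -0.9993 with scaling by total counts. At low phosphate the log2 ratios were -0.16 (-0.27 to -0.06) for EXPA7 and -0.26 (-0.37 to -0.16) for EXPA18. In the additive fit of edgeR the genotype terms of EXPA7 and EXPA18 had adjusted p-values of 0.126 and 0.0974, and DESeq2 gave 0.0433 for EXPA18.

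A list of 21 root hair genes, chosen from knowledge of these cells, was described beside the pair. Of the 21 root hair genes, all measured, 12 were lower in med16-2 at high phosphate and 0 at low phosphate. Of all tested loci, 6.34% and 6.14% were lower. The median genotype log2 ratios of the 21 were -1.02 (+Pi) and -0.17 (-Pi). For phosphate, 0 of the 21 met the size rule in either genotype. Their median log2 ratio was -0.34 in Col-0, where 19 were below 0, and 0.49 in med16-2, where all 21 were above 0. Of all 18692 tested loci, 9922 were below 0 in Col-0 and 9006 were above 0 in med16-2. The difference of phosphate ratios met the rule as higher for 3 and as lower for 0, beside 2.3% and 2.16% of all tested loci. The median difference of phosphate ratios over the list was 0.79. RSL4 (AT1G27740) was at 80.5, 43.2, 39.6 and 52.7 CPM. Its difference of phosphate log2 ratios was 1.31 (1.09 to 1.53). The largest genotype log2 ratios of the list at high phosphate were -1.32 for RHS12, -1.25 for MRH6, -1.25 for RHS19 and -1.23 for RHS18. In bulk root tips, fewer root hair cells and less RNA per root hair cell cannot be told apart. Summed over the 21 genes the level was 3770, 2876, 1835 and 2592 CPM, and the part of this shift in the EXPA7 and EXPA18 ratios was not tested.

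**Figure D5:**
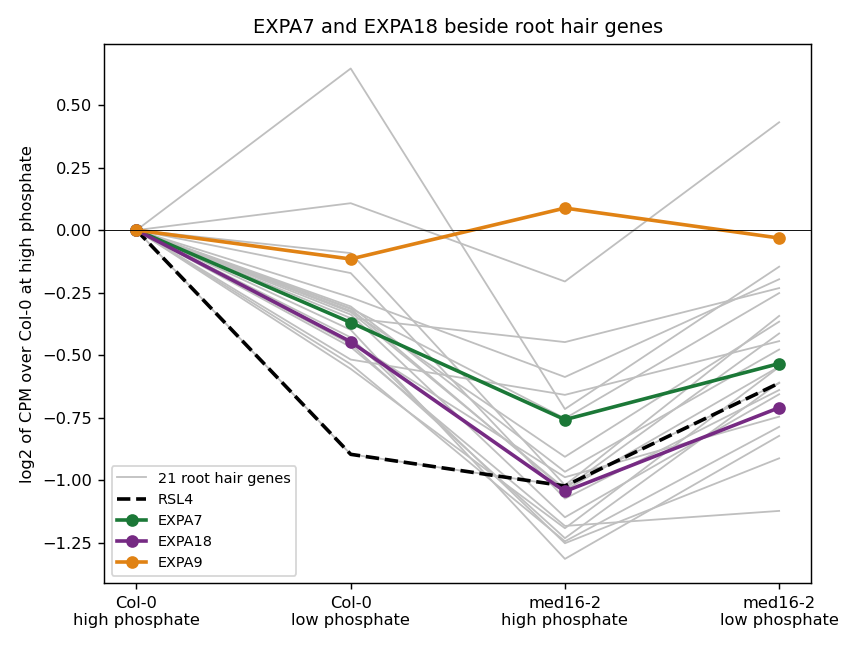
Log2 of the CPM over that in Col-0 at high phosphate for EXPA7, EXPA18 and EXPA9, with the 21 root hair genes as thin grey lines and RSL4, also among the 21, dashed. All lines share the Col-0 high phosphate library as their reference. EXPA7 and EXPA18 run among the root hair genes, lowest in med16-2 at high phosphate, whereas EXPA9 stays within 0.12 of its reference.

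EXPA14 and EXPA17 are known targets of LBD18, a transcription factor of lateral root emergence. EXPA14 (AT5G56320) was at 100.5, 80.6, 96.6 and 106.9 CPM. Its phosphate log2 ratio was -0.32 (-0.44 to -0.20) in Col-0 and 0.15 (0.04 to 0.26) in med16-2. EXPA17 (AT4G01630) was at 37.8, 22.1, 39.0 and 40.0 CPM, so that the Col-0 low phosphate library was apart from the other 3. Its phosphate log2 ratio was -0.77 (-0.99 to -0.56) in Col-0 and 0.03 (-0.14 to 0.21) in med16-2, a difference of 0.81 (0.53 to 1.08). Neither gene met the size rule in any comparison. LBD18 itself had 21, 27, 15 and 10 counts. Of 6 lateral root initiation genes 4 were measured, of which PUCHI was higher at low phosphate in Col-0 (log2 ratio 1.48, 0.43 to 2.86) and 0 met the rule for phosphate in med16-2. Of all tested loci 3.24% were higher in that Col-0 comparison. At high phosphate LBD18 was lower in med16-2 at a log2 ratio of -1.02 (-2.09 to -0.01), and at low phosphate PUCHI was lower at -2.43 (-4.25 to -1.20). PUCHI had 8, 38, 7 and 5 counts and passed the filter through its Col-0 -Pi library alone. Both its calls rest on that library, so they are a description and not to be read against the shares of all loci. Lower calls made up 6.34% (+Pi) and 6.14% (-Pi) of all tested loci.

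EXPA15 (AT2G03090) was the only alpha-expansin past the threshold for a rise in the mutant in the additive fit. It was at 45.7, 45.5, 71.0 and 72.7 CPM, so the genotypes separated and the phosphate levels did not. The genotype ratio was 1.55-fold (1.39 to 1.74) at high and 1.60-fold (1.45 to 1.77) at low phosphate, short of the size rule, and the additive fit of edgeR gave an adjusted p of 0.0155. At low phosphate, 5 of the 16 measured alpha-expansins had a genotype log2 ratio above 0 and 11 below. Of all 18692 tested loci, 9570 were above 0 and 9122 below. The highest of these alpha-expansin ratios was that of EXPA17, at 0.85 (0.65 to 1.05).

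The remaining alpha-expansins met no rule. EXPA9 kept its log2 ratios between -0.12 and 0.09 in all 4 comparisons. EXPA11 was at 51.5, 55.9, 49.3 and 41.3 CPM and EXPA13 at 21.1, 21.5, 25.1 and 21.1 CPM. EXPA10 had 33, 27, 66 and 36 counts and a phosphate log2 ratio of -0.98 (-1.78 to -0.21) in Col-0 and of -0.63 (-1.27 to -0.04) in med16-2. EXPA20 had 31, 78, 30 and 31 counts, but it overlaps the opposite-strand non-coding locus AT4G38215 over 1061 bases, so its reads cannot be assigned to a strand.

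Of the 6 beta-expansin genes, 2 were measured and neither met the size rule. EXPB1 (AT2G20750) was at 54.7, 43.7, 58.1 and 58.9 CPM. Like EXPA17, it was lowest in Col-0 at low phosphate, where its log2 ratio to high phosphate was -0.32 (-0.49 to -0.16). EXPB3 (AT4G28250) was at 7.51, 12.2, 8.47 and 13.2 CPM, with both low phosphate libraries above both high phosphate libraries. Its phosphate ratios were 1.62-fold (1.24 to 2.16) in Col-0 and 1.56-fold (1.22 to 1.99) in med16-2, and edgeR's additive fit gave an adjusted p of 0.168. In soybean a beta-expansin gene is known to be induced in roots by phosphate starvation.

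The expansin-like genes held the largest genotype ratio of the family. EXLB1 (AT4G17030) had 93, 229, 7 and 8 counts, or 9.44, 14.3, 0.486 and 0.652 CPM. It passed the filter on low values through the Col-0 libraries alone, so these values are a description. The level in med16-2 was 18.2-fold lower (9.06 to 49.6) with +Pi and 20.7-fold lower (10.98 to 51.6) with -Pi. Its phosphate log2 ratio was 0.60 (0.25 to 0.97) in Col-0 and, with the few counts of med16-2, 0.41 (-1.23 to 2.12) there. For comparison MED16 itself had log2 ratios of -3.44 and -3.57 between genotypes. All 5 measured green tissue markers of 6 were also lower in med16-2 at either phosphate level. RBCS1A had 0 counts there at high and 1 at low phosphate. Like EXLB1, RBCS1A and CAB1 (191, 163, 8 and 7 counts) passed the filter through their Col-0 libraries alone and so had to differ. Of all tested loci 6.34% (+Pi) and 6.14% (-Pi) were lower. The part of green tissue RNA in the genotype ratios of EXLB1 and of EXPA12, EXPA8, EXPA3 and EXLA3 was not tested.

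EXLA2 and EXLA3 differed from each other in pattern. EXLA2 (AT4G38400) was at 38.6, 17.4, 20.9 and 21.1 CPM, so a single library was high. It was 2.21-fold lower (1.89 to 2.59) at low phosphate in Col-0, with a log2 ratio of 0.01 (-0.23 to 0.26) in med16-2. The difference, 1.16 (0.83 to 1.49), made EXLA2 the only measured member called higher in the genotype dependence of the phosphate ratio, beside 2.3% of all tested loci. EXLA3 (AT3G45960) had 71, 155, 63 and 54 counts and was 2.19-fold lower (1.61 to 3.06) in the mutant at low phosphate. EXLA1 (AT3G45970) had 498, 1110, 704 and 704 counts and met no rule, with a phosphate log2 ratio of 0.46 (0.31 to 0.62) in Col-0. EXLA1 and EXLA3 are neighbours on chromosome 3 whose coding sequences were 86.0% identical with a shared run of 57 bases, so some of their reads may not be told apart. EXLA1 also overlaps AT3G45980, which had 1860 to 3285 counts, by 22 bases.

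Expansins act at acidic wall pH, so genes of apoplast acidification were described beside them. Of 10 acid growth genes, all measured, SAUR41 was the single gene called higher at low phosphate in Col-0 (5 and 23 counts) and 0 met the rule in med16-2. Higher calls in that Col-0 comparison made up 3.24% of all tested loci. SAUR41, at 0.508, 1.44, 0.903 and 1.30 CPM, passed the filter through its low phosphate libraries, so its call is a description only. In med16-2 with +Pi, 3 were lower, namely SAUR76 at a log2 ratio of -2.13, the alkalinizing peptide gene RALF1 at -1.24 and the proton pump gene AHA7 at -1.08. AHA2, the main root proton pump gene, had phosphate log2 ratios of -0.04 (Col-0) and 0.13 (med16-2) and genotype log2 ratios of -0.36 (+Pi) and -0.20 (-Pi). With -Pi, SAUR76 alone of the 10 was lower in med16-2, at -1.23. The shares of all tested loci called lower in med16-2 were 6.34% (+Pi) and 6.14% (-Pi). The medians of the acid growth list were -0.08 and 0.32 for phosphate and -0.48 and -0.14 for genotype.

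Of 18 other wall genes, covering xyloglucan endotransglucosylases, cellulose and xyloglucan synthesis and pectin, all were measured. At low phosphate in Col-0, XTH20 was higher at a log2 ratio of 1.17 (0.90 to 1.46) and XTH17 lower at -1.12 (-1.20 to -1.04), and 0 met the rule in med16-2. Of all tested loci 3.24% were higher and 1.49% lower in that Col-0 comparison. In med16-2, XTH20 was lower at -2.04 (-2.56 to -1.57) with +Pi and -2.29 (-2.66 to -1.95) with -Pi, and the polygalacturonase gene PGX1 was higher at 1.01 (0.79 to 1.23) at high phosphate. Lower calls made up 6.34% (+Pi) and 6.14% (-Pi) of all tested loci, and higher calls 0.712% (+Pi). The medians of this list were -0.09 (Col-0) and 0.11 (med16-2) for the phosphate ratio and -0.28 (+Pi) and -0.18 (-Pi) for the genotype ratio.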

How the data were processed

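Per the labels' protocols, libraries were made from root tip RNA with a TruSeq kit that does not keep strand. The authors deposited raw read counts for every locus. The submitters' processing notes name HTSeq 0.6.0, TopHat2 2.0.9, Trimmomatic 0.35 and the TAIR10 build, but no settings. Lines that name no gene held 9.89% to 42.1% of listed reads and were left out. Groups came from the sample titles.

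Counts were scaled with edgeR 4.0.16 (factors 0.9774 to 1.017). Ratios used a pseudocount of 0.5 and exact Clopper-Pearson 95% intervals. The difference of phosphate ratios used a normal interval. The additive fit used edgeR, with DESeq2 1.42.0 as the alternative. Intervals and limits for 0 counts cover counting error only. In simulated data for the additive phosphate effect, 200 of 200 genes changed 4-fold were recovered, with 13 of 18492 unchanged genes called. The changed genes had a mean of at least 5 CPM and the same change in both genotypes, and all genes shared a common dispersion. Recovery of smaller or genotype-dependent changes was not simulated. Exon lengths, overlaps and sequences came from RefSeq (TAIR10.1), with coding identity from Biopython 1.88.

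Members, lists and tests were chosen with earlier results of these data known. Members named were EXPA7, EXPA18, those meeting the size rule and the 8 of highest level; others were named to account for every member. Of lists, those with the largest ratios and RSL4, LBD18 and AHA2 were named. The planned comparison of proteins was replaced by coding sequences. Alternatives tried were other scalings, filters, pseudocounts, folds, and the exclusion of ribosomal RNA and organelle loci.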

Additional observations from a re-analysis of the deposited data

Results flagged for a closer look

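For 5 members the phosphate ratio differed between the genotypes, either by at least 2-fold with an interval of the difference that excluded 0, or with ratios of opposite sign whose intervals both excluded equality. Of all tested loci 6.97% met either rule, and the members' share was 22.7% of 22. Loci with many counts meet the second rule more readily, since their intervals are narrower. With 1 library per group these differences were not tested against variation between plants. The difference of log2 ratios, med16-2 minus Col-0, was -1.12 for EXPA6 and 1.16 for EXLA2, each of at least 2-fold, as in 4.46% of all tested loci in either direction. EXPA7, EXPA14 and EXPA18 had a negative log2 ratio in Col-0 and a positive log2 ratio in med16-2, a pattern of 2.27% of all tested loci, with differences of 0.59, 0.47 and 0.78. EXPA17, with a difference of 0.81 (0.53 to 1.08), met neither rule, so members outside these 5 can differ as much.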

How the results depend on the processing

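None of 1208 recomputed results reversed. The log2 ratio of a member does not depend on the fold limit or the filter, so part of these 1208 could not reverse. Of 94 recomputed counts of called members, 86 stayed within 1.5 times the value reported. The other 8 all came from a limit of 1.5-fold in place of 2-fold. With it, members higher and lower at low phosphate were 9 and 3 in Col-0 (6.97% and 4.17% of all tested loci) and 6 and 1 in med16-2 (5.04% and 2.54%). Members higher and lower in med16-2 were 1 and 8 at high phosphate (2.77% and 12.3%), 3 were higher at low phosphate (3.27%), and 4 had a higher phosphate ratio in med16-2 (5.32%). EXPA12 lost its call in med16-2 with a pseudocount of 5 (log2 ratio 0.99), and EXPA4 gained a call in Col-0 with scaling by total counts (1.02). In the additive fit EXPA4 had an adjusted p of 0.0510 with DESeq2 size factors and 0.0505 with a mean of at least 5 CPM, and EXPA12 had 0.0186 for phosphate and EXLA3 0.0416 for genotype with no filter. Scaling and filtering without the low phosphate library of med16-2 changed no call of a member in the comparisons that do not use it. This could hardly change a call, since the scaled library size of Col-0 +Pi, for instance, moved only from 9851452 to 9841463. The comparisons that use the low phosphate library of med16-2 could not be checked in this way. Over all tested loci, counts of calls also moved: higher and lower at low phosphate in Col-0 were 606 and 278 as reported, 255 and 134 with a mean of at least 5 CPM, and 1303 and 779 with 1.5-fold. In the additive fit with no filter, loci higher for phosphate were 298 in place of 146, and with DESeq2 loci higher and lower for genotype were 38 and 783 in place of 148 and 1218. No paired analysis was possible because each group has 1 library and the labels give no replicate numbers. Depth limits EXLB1 in med16-2 (7 and 8 counts) and the members with few or no counts.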
